A study of Mus musculus with 21 samples.

Results

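This comparison set mouse CD8 T cells cultured with 50 IU/mL of IL-15 against cells cultured with 50 IU/mL of IL-2, both sampled on day 5, and used every cell of these 2 libraries out of 21. The IL-15 library held 5809 cells and the IL-2 library 3250 cells, out of 106456 cells in the series. Each group had 1 library, so no difference below has a replicate check, no p-value was computed, and all intervals cover counting error only. The cells of both groups were OT1 cells, which carry a transgenic T cell receptor for an ovalbumin peptide, and naive OT1 cells were first stimulated in culture with anti-CD3 and anti-CD28 beads. The other libraries were naive cells on day 0, stimulated cells with no cytokine on days 3 and 5, and cells given IL-2, IL-15 or IL-2v (an IL-2 variant, a mutant per its labels) at 5 or 50 IU/mL on days 3, 5 and 10. The treatment labels of this pair name interleukin-3 for the IL-2 library and interleukin-16 for the IL-15 library; the titles and the design text name IL-2 and IL-15 and were followed. The extraction label describes a sort of CD44-positive, CD45.1-positive T cells out of tumours, whereas the growth label describes culture, and the number of mice behind a library is not given in the sources used here.

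IL-2 and IL-15 are growth factors of CD8 T cells that signal through the same receptor pair, the beta chain Il2rb and the common gamma chain Il2rg, to the kinases JAK1 and JAK3 and the transcription factor STAT5. They differ in the alpha chain: IL-2 is captured by CD25, encoded by Il2ra, on the responding cell, while IL-15 is held by Il15ra and is often presented by another cell. In textbook accounts, strong IL-2 signalling goes with effector cells that make granzymes and run glycolysis, and IL-15 with long-lived memory cells that recirculate through lymph nodes.

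The values were counts of unique molecular identifiers (UMIs, tags that mark single captured RNA molecules), summed over the cells of a library and scaled to CPM, the count per 1000000 UMIs of the library. The IL-15 library held 23288848 UMIs with a median of 3617 UMIs and 1349 genes per cell, and the IL-2 library 10589950 UMIs with a median of 3016 UMIs and 1271 genes, the lowest total and the lowest medians of the 21 libraries. Mitochondrial genes took 4.70% of UMIs with IL-15 and 2.91% with IL-2, and ribosomal protein genes 35.01% and 31.9%. The T cell genes Cd3d (1064 and 977 CPM) and Cd3e (605 and 532 CPM) and the CD8 genes Cd8a (263 and 160 CPM) and Cd8b1 (726 and 298 CPM) were present in both libraries. Foxp3, the natural killer cell gene Ncr1, the B cell gene Ms4a1 and the myeloid genes Lyz2, Csf1r and Adgre1 were at 0 UMIs in both, and Cd4 stood at 0.0859 and 0.472 CPM. The summed level of the 5 B cell markers was 28.8 CPM with IL-15 and 10.7 CPM with IL-2, and that of the 3 measured erythroid markers 0.215 and 2.55 CPM. Of the gamma delta T cell markers Trdc alone reached 20 CPM (132 and 92.4 CPM), of the natural killer cell markers Eomes alone, and of the myeloid markers Cst3 alone (88.5 and 114 CPM). The 2 libraries shared 6 cell barcodes.

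Differences are given as log2(CPM + 1) of IL-15 minus IL-2 (for genes at a low level the added 1 makes the difference smaller than the true one), and a gene was counted as higher or lower where the difference reached 1 (2-fold). Of 5946 genes with at least 20 CPM in either library, 255 (4.29%) were higher by 2-fold or more with IL-15 and 476 (8.01%) were lower by as much, 12.3% in both directions together. Large differences lay mostly on the low side: past 4-fold there were 25 higher and 107 lower genes, and past 8-fold 2 higher and 45 lower. The median over all these genes was −0.07. With library totals that leave out mitochondrial and ribosomal protein genes, that median was 0.05 and the split 346 higher and 400 lower (46.4% of the called genes higher, against 34.9%), a shift shared by all genes.

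**Figure D1:**
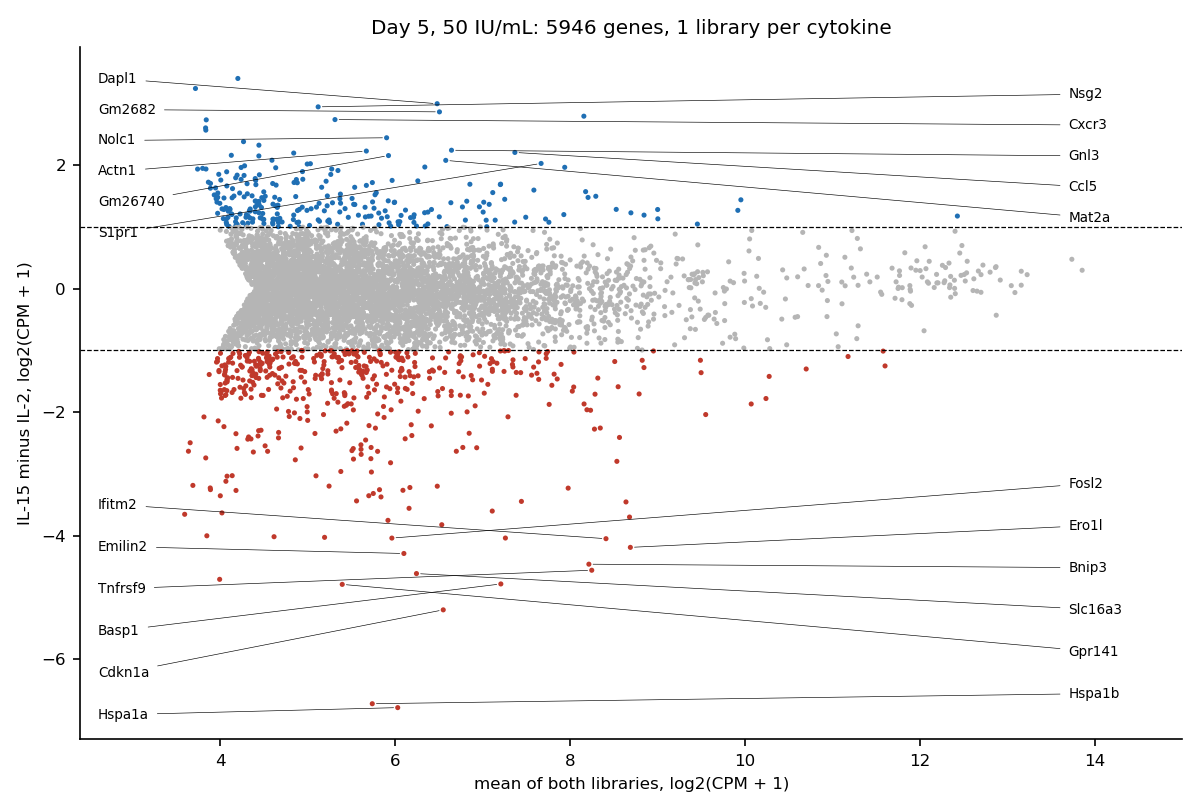
Difference between the day 5 libraries with 50 IU/mL IL-15 and IL-2 (y axis, log2(CPM + 1)) against the mean level of both (x axis) for 5946 genes, 1 point per gene, blue where at least 2-fold higher with IL-15 and red where at least 2-fold lower; dashed lines mark 2-fold and genes named among the 12 highest and the 12 lowest are labelled. The lowest points, Hspa1a and Hspa1b, lie below −6, while Dapl1, the highest of those of at least 50 CPM, is at 3.00.

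Among genes of at least 50 CPM in the higher library, the 12 with the highest difference included the genes Dapl1, Nsg2, Actn1 and S1pr1 of naive and recirculating T cells. Dapl1 (chr2:59484653-59505020, GRCm38) stood at 158 CPM (95% interval 153 to 163) with IL-15 and 18.9 CPM (16.4 to 21.7) with IL-2, a difference of 3.00. S1pr1 (chr3:115710433-115715072), the receptor by which lymphocytes leave lymph nodes, stood at 326 CPM (319 to 333) and 79.1 CPM (73.9 to 84.7), a difference of 2.03. Both genes are shown because they are among the 12 highest, so the distance between their levels is a description. Others were Nsg2 (2.94), the long noncoding RNAs Gm2682 (2.86) and Gm26740 (2.16), the chemokine receptor gene Cxcr3 (2.74), the nucleolar genes Nolc1 (2.44) and Gnl3 (2.24), the actinin gene Actn1 (2.23), the chemokine gene Ccl5 (2.21) and Mat2a (2.08), whose enzyme makes the methyl donor S-adenosylmethionine.

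The 12 with the lowest difference were led by the inducible heat shock genes and by Cdkn1a. Hspa1a (chr17:34969190-34972156) had 4 UMIs with IL-15 and 1360 with IL-2, 0.172 against 128 CPM, and Hspa1b (chr17:34956436-34959238) had 0 and 1109 UMIs, so it was at least 813-fold lower with IL-15 when its 0 is set to a floor of 3 UMIs in the library. The transcripts of these 2 genes are near-identical over 74.0% of Hspa1a and 78.5% of Hspa1b, so the split of reads between them is uncertain. They were seen in few cells: 445 of the 3250 IL-2 cells and 4 of the 5809 IL-15 cells held a UMI of either gene. Cdkn1a (chr17:29090976-29100727), the cell cycle inhibitor p21, stood at 3.95 CPM (3.18 to 4.84) against 181 CPM (173 to 190), a difference of −5.20. Tnfrsf9 (chr4:150914562-150946102), the costimulatory receptor 4-1BB, stood at 23.7 against 582 CPM (−4.56). The rest were Gpr141 (−4.79), Basp1 (−4.78), the lactate exporter gene Slc16a3 (−4.62), the hypoxia-induced mitophagy gene Bnip3 (−4.46), Emilin2 (−4.29), the disulfide oxidase gene Ero1l (−4.19), Ifitm2 (−4.05) and the AP-1 gene Fosl2 (−4.04). Ifitm2 lies in a family of close copies, and a near-identical sequence covers 66.0% of its transcript.

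Of the receptor genes that reached 20 CPM, only that of the IL-2 alpha chain differed by 2-fold or more. Il2ra stood at 111 CPM (107 to 115) with IL-15 and 330 CPM (319 to 341) with IL-2, a difference of −1.57, and a UMI of it was found in 19.2% (18.2% to 20.2%) of IL-15 cells and 42.2% (40.4% to 44.0%) of IL-2 cells once every cell was thinned to 2000 UMIs. In naive cells, with a median depth of 3799 UMIs, the share was 0.872%. The shared chains differed by less than 2-fold: Il2rb stood at 325 and 374 CPM and Il2rg at 280 and 195 CPM. Il15ra was low in both (14.5 and 7.74 CPM), under the 20 CPM minimum. Of the 7 measured members of the receptor, JAK and STAT5 list, 0 were higher (4.29% of all genes were) and 1 lower (8.01%), with a median of −0.22. Across the day 5 libraries Il2ra stood at 34.04 CPM with no cytokine, 50.8 with 5 IU/mL IL-15, 78.3 with 5 IU/mL IL-2, 126 with IL-2v at 5 IU/mL and 430 with IL-2v at 50.

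Of 16 measured STAT5 targets and feedback genes, 1 was higher (4.29% of all genes were) and 6 lower (8.01%), with a median of −0.30. Cyclin D2, encoded by Ccnd2, was higher with IL-15 (704 against 321 CPM, 1.13). The lower genes were the STAT5-induced inhibitor Cish (31.2 against 97.4 CPM, −1.61), Xbp1 (−1.63), the lymphotoxin gene Lta (−1.63), Ctla4 (−1.96), Nfil3 (−2.57) and Cdkn1a. Other targets lay within 2-fold: the survival gene Bcl2 stood at 600 and 449 CPM, Socs2 at 72.4 and 91.7 CPM, Pim1 at 291 and 330 CPM and Myc at 146 and 151 CPM.

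Of 21 measured naive and memory genes, 10 were higher with IL-15 (4.29% of all genes were), 10 lay within 2-fold and 1 was lower (8.01%). Their median was 0.99. Over the same 21 genes the median was 0.79 in cells with a Mki67 or Top2a UMI and 0.82 in cells without one; where the 20 CPM minimum was applied within each class, it was 0.65 and 1.45. Besides the genes above, Klf2, the factor that drives S1pr1, stood at 390 against 99.1 CPM (1.97), and Tcf7, which encodes the memory factor TCF1, at 206 against 69.4 CPM (1.56). Il6ra (3.24, and 1.51 with 10 CPM added in place of 1), Klf3 (1.91) and Id3 (1.11) were also higher. Id3 differed by 0.79 in cells with a Mki67 or Top2a UMI and by 1.86 without the cells that held an Hspa1a or Hspa1b UMI. Lef1 (0.65), the IL-7 receptor gene Il7r (0.16), Foxo1 (0.07), Bach2 (0.10) and Ccr7 (−0.39) lay within 2-fold, and Myb was lower with IL-15 (2.71 against 23.8 CPM, −2.74). In thinned cells S1pr1 was found in 46.0% (44.7% to 47.3%) of IL-15 cells, 13.4% (12.2% to 14.7%) of IL-2 cells and 57.2% of naive cells. Tcf7 was found in 32.7%, 11.7% and 58.7%. For both genes the IL-15 library thus stood between the naive and the IL-2 library.

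**Figure D2:**
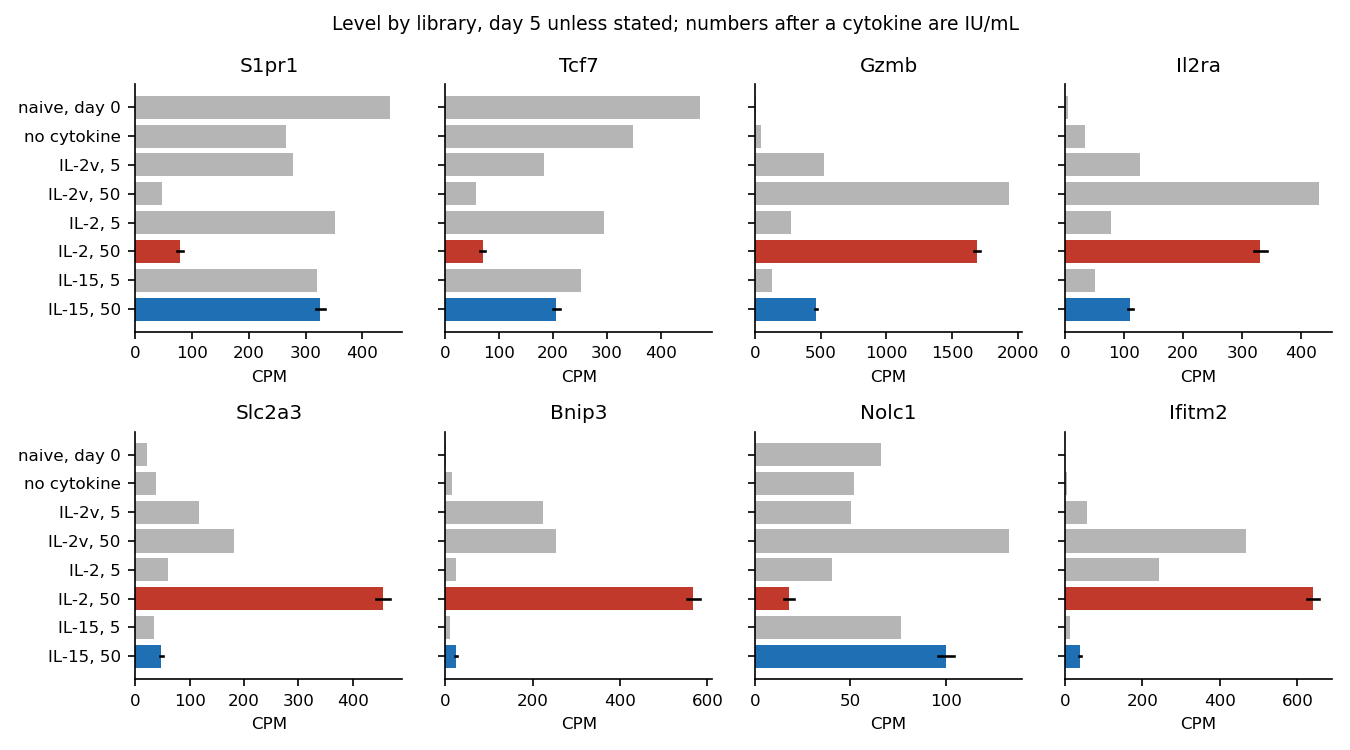
Levels (x axis, CPM) of 8 genes in the naive library and the day 5 libraries (y axis), with the IL-15 library at 50 IU/mL in blue, the IL-2 library at 50 IU/mL in red, 1 bar per library and black lines for the 95% counting interval of these 2. Nolc1 is lowest and Slc2a3, Bnip3 and Ifitm2 are highest in the IL-2 library at 50 IU/mL among the libraries drawn, while S1pr1 and Tcf7 are lowest and Gzmb and Il2ra highest in the IL-2v library at 50 IU/mL.

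Effector genes were mostly lower with IL-15. Of 12 measured effector transcription factors, 0 were higher (4.29% of all genes were) and 7 lower (8.01%), with a median of −1.51. Bhlhe40, a regulator of cytokine production and metabolism, stood at 28.3 CPM (26.1 to 30.5) against 318 CPM (307 to 329), a difference of −3.45. Batf3 (−3.19, and −1.48 with 10 CPM added in place of 1) and Zbtb32 (−1.99) were also lower. So were Prdm1, which encodes the terminal differentiation factor BLIMP1 (9.27 against 38.7 CPM, −1.95), Rora (−1.72), Ikzf2 (−1.70) and Irf8 (−1.32). The 2 T-box genes did not differ in this way: Eomes stood at 30.9 and 30.4 CPM, and Tbx21 at 18.1 and 12.3 CPM, under the minimum.

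Of 15 measured genes of the granzyme and granule protein list, 1 was higher (4.29% of all genes were) and 8 lower (8.01%). This list, which also holds serpin protease inhibitors and the death ligand gene Fasl, had a median of −1.21. Gzmb, the main granzyme of activated CD8 T cells, stood at 462 CPM (453 to 471) against 1689 CPM (1665 to 1714), a difference of −1.87. Gzma (16.5 against 160 CPM, −3.20), Gzmc (12.9 against 129 CPM, −3.22), the protease inhibitors Serpinb1a (−3.26), Serpinb6b (−2.08) and Serpinb9 (−1.76), the death ligand gene Fasl (−1.68) and the perforin gene Prf1 (−1.21) were also lower. Serpina3g was higher (35.3 against 11.99 CPM, 1.48). A UMI of Gzmb was found in 50.6% (49.2% to 51.9%) of thinned IL-15 cells, 88.9% (87.7% to 90.1%) of IL-2 cells and 0.760% of naive cells. The granule genes Nkg7 (0.11), Srgn (−0.08), Lamp1 (0.03) and Ctsw (0.44) lay within 2-fold. Of the 20 genes of the cytokine and chemokine list in the tables, 4 reached 20 CPM: Ccl5 (271 against 57.9 CPM) and Tnfsf8 (49.6 against 18.4 CPM) were higher with IL-15, Tnf was lower (8.89 against 22.3 CPM), and Tgfb1 differed by −0.28. Ifng stood at 0.429 and 1.23 CPM.

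Within single cells, memory genes differed in how often they were found with the effector gene Gzmb. In cells thinned to 2000 UMIs, Tcf7 and Gzmb were both found in 14.4% (13.5% to 15.4%) of IL-15 cells and 9.52% (8.47% to 10.7%) of IL-2 cells, and Gzmb without Tcf7 in 36.1% and 79.4%. For Il7r the order was the other way, and it was found with Gzmb in 13.8% (12.9% to 14.7%) of IL-15 cells and 22.3% (20.7% to 23.8%) of IL-2 cells. Among IL-15 cells, Gzmb was found in 44.1% of those with Tcf7 and 53.7% of those without it, and among IL-2 cells in 81.2% and 89.97%. With and without Il7r, Gzmb was found in 49.4% and 51.0% of IL-15 cells and in 91.5% and 88.1% of IL-2 cells. A gene without a UMI in a thinned cell may still be expressed, so these shares describe detection.

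Of 12 measured TNF receptor and costimulatory genes, 0 were higher (4.29% of all genes were) and 6 lower (8.01%), with a median of −1.18. Besides Tnfrsf9, these were Tnfrsf4, the receptor OX40 (11.2 against 172 CPM, −3.82), Tnfrsf18, the receptor GITR (145 against 477 CPM, −1.71), Icos (−1.45), Slamf7 (−1.41) and Cd28 (−1.40). Cd27, a costimulator of naive and memory cells, stood at 197 and 102 CPM (0.95). Of 8 measured genes of the inhibitory receptor list, which also holds the ligand gene Cd200, 2 were higher and 4 lower. Over all genes these shares were 4.29% and 8.01%. Btla (27.5 against 5.38 CPM, 2.16) and Cd200 (1.70) were higher. The 4 lower genes were Ctla4 (119 against 465 CPM, −1.96), Lag3 (31.3 against 72.0 CPM, −1.18), Lilrb4a (−1.54) and Lilr4b (−1.62). The last 2 are near-identical copies and cannot be told apart with certainty. Pdcd1, which encodes PD-1, was low in both libraries (1.12 and 8.69 CPM).

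Of 16 measured chemokine receptors and integrins, 2 were higher and 3 lower, where 4.29% and 8.01% of all genes were. Cxcr3 stood at 68.1 CPM (64.7 to 71.5) against 9.35 CPM (7.60 to 11.4), and the integrin gene Itga4 at 50.5 against 23.5 CPM (1.07). The leukotriene B4 receptor gene Ltb4r1 (7.34 against 112 CPM, −3.75), Cxcr4 (−2.39) and Itgav (−1.42) were lower. The Cxcr4 difference was −1.23 in cells with a Mki67 or Top2a UMI, which were 24.6% of IL-15 and 50.4% of IL-2 cells, and −3.89 in the others. Cxcr6, a tissue homing receptor gene, stood at 113 and 111 CPM. Among 19 genes of the T cell receptor complex and its proximal signalling the counts were near those shares: Cd8b1 was higher (1.28), the phosphatase gene Ptpn22 was lower (−1.03), and the other 17 lay within 2-fold with a list median of 0.12. Klrd1, which encodes the lectin CD94, stood at 522 against 214 CPM (1.28), and Klrk1 at 51.4 and 51.6 CPM.

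**Figure D3:**
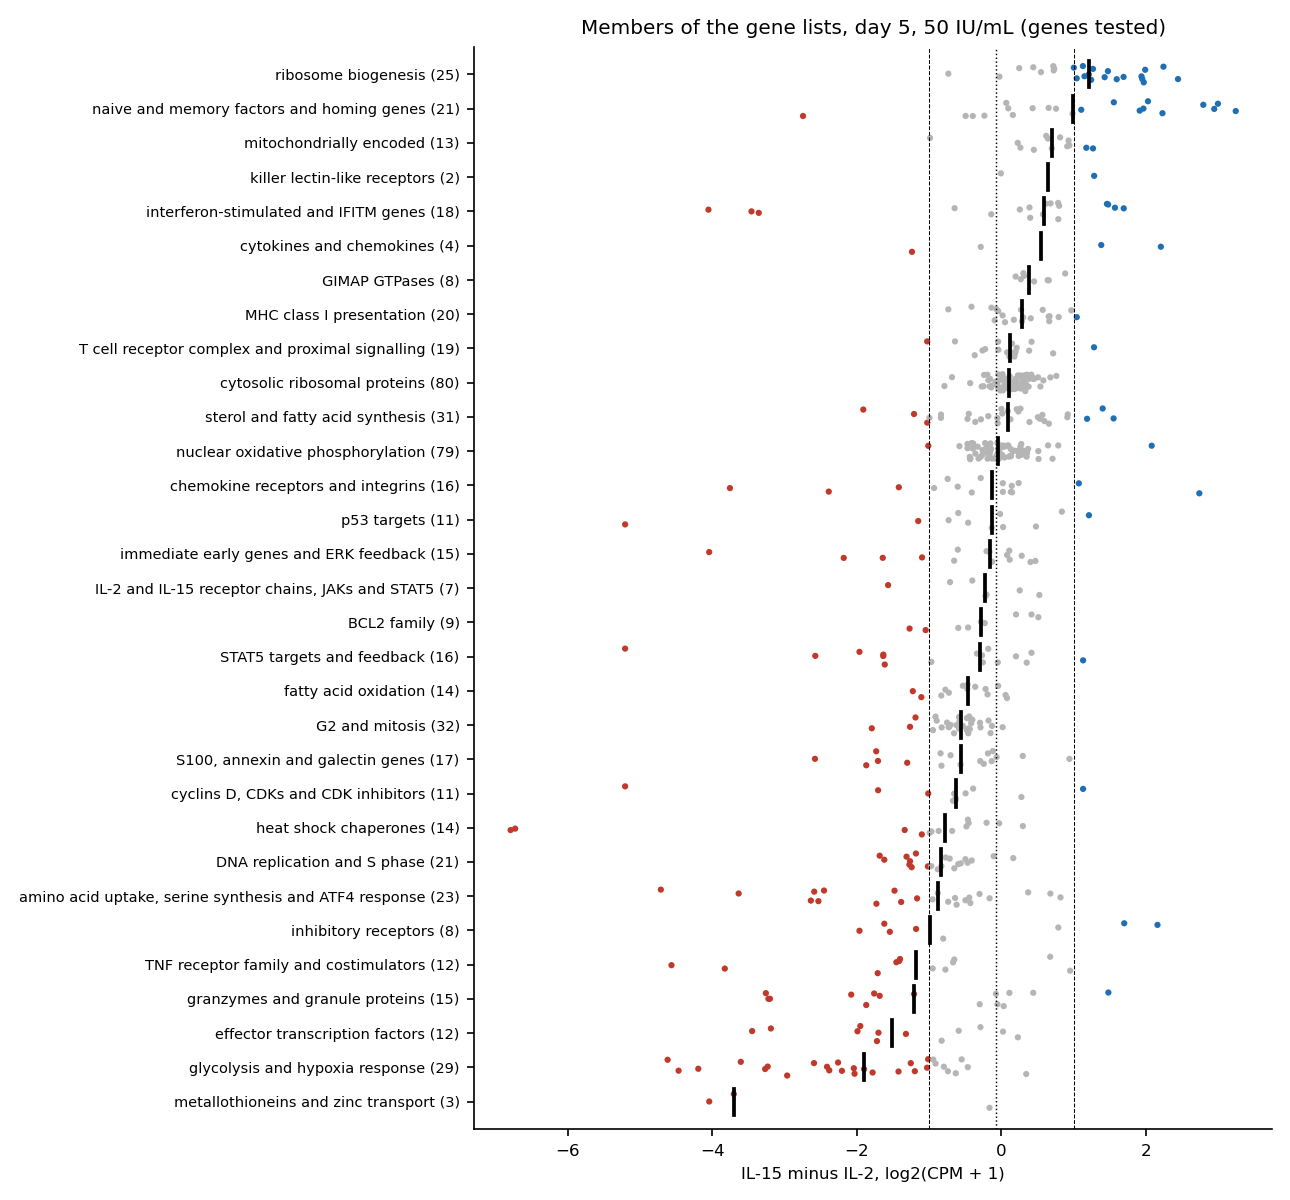
Differences between IL-15 and IL-2 on day 5 at 50 IU/mL (x axis, log2(CPM + 1)) for the measured members of 31 gene lists (y axis, number of genes in brackets), 1 point per gene, blue at least 2-fold higher with IL-15 and red at least 2-fold lower; thick black marks are list medians, the dotted line the median of all genes and dashed lines 2-fold. List medians run from −3.70 for metallothioneins to 1.21 for ribosome biogenesis.

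Glycolysis and hypoxia genes made the widest block of lower values. Of 29 measured members, 0 were higher with IL-15 (4.29% of all genes were) and 21 lower (8.01%), with a median of −1.90. Transport and the first steps of glycolysis were covered by the glucose transporter genes Slc2a3 (47.5 against 455 CPM, −3.23) and Slc2a1 (12.1 against 77.7 CPM, −2.59), the hexokinase gene Hk2 (24.9 against 118 CPM, −2.20) and the phosphofructokinase gene Pfkp (112 against 537 CPM, −2.26). In the later steps of the pathway, Tpi1 stood at 293 against 1206 CPM (−2.04), Pgam1 at 119 against 637 CPM (−2.41), Gapdh at 2031 against 4096 CPM (−1.01) and the lactate dehydrogenase gene Ldha at 674 against 1807 CPM (−1.42). Among classic targets of the hypoxia factor HIF1A, Ero1l stood at 41.9 against 782 CPM, Bnip3 at 24.8 against 568 CPM, Ndrg1 at 20.01 against 254 CPM and Egln3 at 11.8 against 122 CPM. Hif1a itself stood at 173 against 353 CPM (−1.03). Pgk1 (−0.94), Pkm (−0.91), Gpi1 (−0.74) and the lactate and pyruvate transporter gene Slc16a1 (0.34) lay within 2-fold.

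The difference was seen across the cells of both libraries. The list took a median of 20 UMIs per 2000 in IL-15 cells (10th to 90th percentile 12 to 30) and 49 in IL-2 cells (34 to 65), and 0.107% of IL-15 cells exceeded the IL-2 median. Cells with no cytokine on day 5 had a median of 7 and naive cells of 4, so the IL-15 cells lay between these and the IL-2 cells. Bnip3 stood at 14.8 CPM with no cytokine, 10.2 with 5 IU/mL IL-15, 24.4 with 5 IU/mL IL-2, 223 with IL-2v at 5 IU/mL and 254 with IL-2v at 50.

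**Figure D4:**
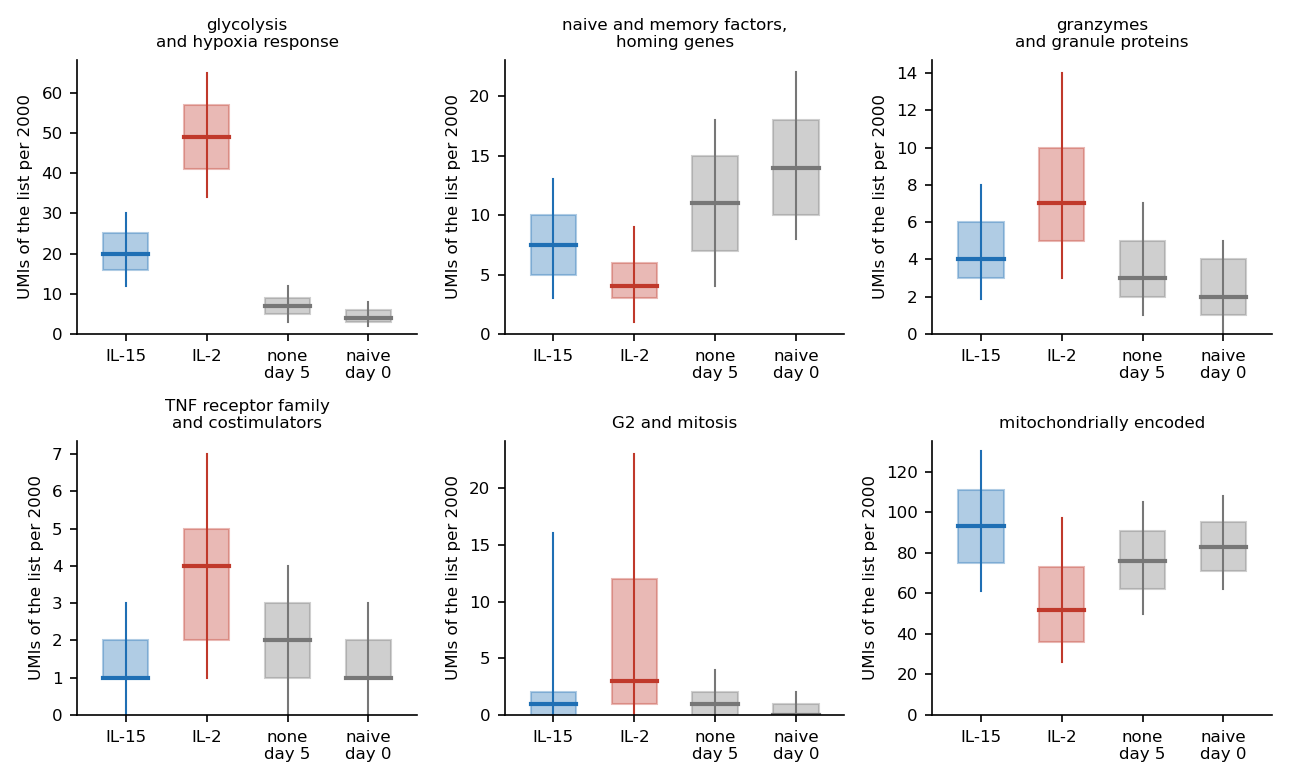
UMIs of 6 gene lists per cell thinned to 2000 UMIs (y axis) in the day 5 libraries with 50 IU/mL IL-15, 50 IU/mL IL-2 and no cytokine and in naive cells (x axis); thick lines are medians over cells, boxes the 25th to 75th and thin lines the 10th to 90th percentile. For glycolysis and hypoxia genes the 90th percentile of IL-15 cells (30) lies below the 10th percentile of IL-2 cells (34). For the naive, memory and homing genes the boxes overlap (5 to 10 with IL-15 and 3 to 6 with IL-2).

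Promoters of the glycolysis and hypoxia genes are shown because these members moved together and HIF1A binds a short core, ACGTG, searched here on both strands in the 250 bases before each RefSeq start (GRCm38.p6). Of the 26 measured members with a promoter in the table, 16 (61.5%) held the core, against 1328 of 4787 (27.7%) of all measured genes with a promoter. The excess was not particular to this core or this list: 15 of the same 26 promoters (57.7%) held the metal response core described below, against 34.6% of all, and 5 of 10 heat shock promoters (50.0%) held ACGTG. In the amino acid and ATF4 list, 4 of 21 promoters (19.0%) held TGATGNAA, the core of the ATF4 composite site, against 2.36% of all. In the interferon list, 6 of 12 (50.0%) held GAAANNGAA, a core of the interferon response element, against 7.98%. For STAT5 targets, 2 of 13 (15.4%) held TTCNNNGAA against 7.19%. A match is a description of letters and was not tested as a site, and the core ACGTG also occurs within the E-box CACGTG. The promoters below belong to the 4 list members with the lowest differences among those with a match, and to Mt2, described further on, whose promoter was searched for the metal response core in the forms TGCACNC and TGCGCNC (34.6% of all promoters). Ero1l (−4.19), Ndrg1 (−3.60) and Slc2a3 (−3.23) lay below Ankrd37 (−2.96) but are not shown, as each had no match or no promoter to search. Capitals mark the matches, and each line runs 5′ to 3′ toward the start of the gene.
Slc16a3, chr11:120948817-120949066, plus strand: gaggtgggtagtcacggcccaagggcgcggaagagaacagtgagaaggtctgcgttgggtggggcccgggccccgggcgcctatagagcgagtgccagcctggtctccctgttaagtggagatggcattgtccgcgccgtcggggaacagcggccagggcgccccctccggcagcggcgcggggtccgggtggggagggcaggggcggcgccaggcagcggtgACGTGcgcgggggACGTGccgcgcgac
Bnip3, chr7:138909507-138909756, minus strand: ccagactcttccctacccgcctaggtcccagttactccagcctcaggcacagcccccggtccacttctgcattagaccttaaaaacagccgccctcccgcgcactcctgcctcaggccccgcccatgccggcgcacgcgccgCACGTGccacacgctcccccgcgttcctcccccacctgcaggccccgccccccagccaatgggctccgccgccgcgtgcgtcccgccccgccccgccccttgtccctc
Egln3, chr12:54203875-54204124, minus strand: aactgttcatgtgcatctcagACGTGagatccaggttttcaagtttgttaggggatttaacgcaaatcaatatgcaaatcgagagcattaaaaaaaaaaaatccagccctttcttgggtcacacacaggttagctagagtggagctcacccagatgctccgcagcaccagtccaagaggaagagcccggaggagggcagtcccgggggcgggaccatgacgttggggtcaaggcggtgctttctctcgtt
Ankrd37, chr8:45999851-46000100, minus strand: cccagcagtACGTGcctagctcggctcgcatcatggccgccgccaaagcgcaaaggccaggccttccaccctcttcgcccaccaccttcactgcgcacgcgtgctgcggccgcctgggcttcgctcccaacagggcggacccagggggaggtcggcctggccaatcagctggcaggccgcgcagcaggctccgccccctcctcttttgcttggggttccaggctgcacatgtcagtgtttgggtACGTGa
Mt2, chr8:94172368-94172617, plus strand: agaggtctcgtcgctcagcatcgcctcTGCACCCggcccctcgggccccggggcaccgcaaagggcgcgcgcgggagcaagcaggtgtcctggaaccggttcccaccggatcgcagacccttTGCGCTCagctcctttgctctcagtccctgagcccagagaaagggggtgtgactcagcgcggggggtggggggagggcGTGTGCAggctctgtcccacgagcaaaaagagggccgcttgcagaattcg

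In the Slc16a3 promoter the matches begin 27 and 14 bases before the start, and in Bnip3 the 2 overlapping matches form 1 E-box about 108 bases before it. Egln3 has 1 match, at 229 bases, and Ankrd37 has 2, at 241 and 6 bases. Mt2 has 3 matches to the metal response core, at 223, 128 and 50 bases.

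Respiration genes did not follow glycolysis. Of 79 measured nuclear genes of oxidative phosphorylation, 1 was higher (4.29% of all genes were) and 1 lower (8.01%). The higher one was the assembly factor gene Ndufaf4 (37.96 against 8.22 CPM, 2.08) and the lower one Ndufv3 (−1.01). The list median of −0.05 turned to 0.06 with totals without ribosomal protein and mitochondrial genes. Of the 13 mitochondrially encoded genes, 2 were higher with IL-15 (4.29% of all genes were) and 0 lower (8.01%), with a median of 0.70. The higher ones were mt-Nd3 (1367 against 567 CPM, 1.27) and mt-Co3 (7652 against 3387 CPM, 1.18). The single gene of the light strand, mt-Nd6, had the opposite sign (128 against 254 CPM, −0.99). Mitochondrial UMIs per cell are also a measure of cell quality, and the list took a median of 93 UMIs per 2000 in IL-15 cells, 52 in IL-2 cells and 83 in naive cells; the part of cell quality in this difference was not tested. With cells of at most 5% mitochondrial UMIs, 3495 IL-15 and 2941 IL-2 cells, the median was 0.59.

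In the fatty acid oxidation list, which also holds the thioesterase gene Acot7, 0 of 14 measured genes were higher (4.29% of all genes were) and 2 lower (8.01%). These 2 were Acadl (67.7 against 147 CPM, −1.11) and Acot7 (−1.22), while the carnitine transferase gene Cpt1a stood at 13.1 and 24.0 CPM (−0.83). In sterol and fatty acid synthesis, 3 of 31 were higher and 3 lower, against 4.29% and 8.01% of all genes. The higher genes included the fatty acid synthase gene Fasn (81.2 against 27.0 CPM, 1.55) and Hsd17b7 (1.40), and the lower ones were the desaturase genes Scd1 (23.5 against 91.1 CPM, −1.91), Fads2 (−1.21) and Fads1 (−1.02). In cells with a Mki67 or Top2a UMI these differed by −1.21, −0.30 and −0.59, so Fads2 and Fads1 lay within 2-fold there.

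The list of amino acid uptake, serine synthesis and ATF4 stress response genes had a median of −0.88. Of its 23 measured genes, 0 were higher (4.29% of all genes were) and 10 lower (8.01%). The transcription factor genes of the response were among them: Atf4 stood at 124 against 325 CPM (−1.39), Ddit3, which encodes CHOP, at 27.8 against 178 CPM (−2.63), and Atf5 at 4.21 against 30.3 CPM (−2.59). So were the asparagine synthetase gene Asns (14.6 against 84.6 CPM, −2.45), Trib3 (−2.53), Ddit4 (−1.73), Slc3a2 (−1.48), Psat1 (−1.17), Vldlr (−3.63) and Nupr1 (−4.71). With 10 CPM added in place of 1, Vldlr differed by −1.77 and Nupr1 by −1.96. The transporter genes Slc7a5 (53.7 and 76.2 CPM), Slc1a5 (78.0 and 60.1 CPM) and Slc7a1 (53.6 and 33.1 CPM) lay within 2-fold.

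Most of the measured genes that build ribosomes were higher with IL-15, while their sum per cell was not. Of 25 measured genes of the ribosome biogenesis list, which also holds the spermidine synthase gene Srm, 17 were higher and 0 lower. The median was 1.21, and over all genes 4.29% were higher and 8.01% lower. Nolc1, a chaperone of nucleolar particles (chr19:46075863-46085530), stood at 100 CPM (96.0 to 104) against 17.6 CPM (15.1 to 20.3), and Gnl3, which encodes nucleostemin, at 164 against 33.9 CPM. The pseudouridine synthase gene Dkc1 (128 against 31.9 CPM, 1.97), the spermidine synthase gene Srm (60.4 against 15.0 CPM, 1.94), the snoRNP core gene Nop56 (176 against 53.7 CPM, 1.69) and the helicase gene Ddx21 (288 against 131 CPM, 1.13) were also higher. Ncl and Npm1 lay within 2-fold: Ncl stood at 1104 and 929 CPM and Npm1 at 1587 and 2638 CPM (−0.73). In CPM, Npm1 and Ncl stood far above the other members named here, so they weigh more in a sum than those do. As a sum over the list, IL-15 and IL-2 cells both had a median of 9 UMIs per 2000. No-cytokine cells had a median of 5 and naive cells of 6. For Nolc1 the IL-2 library was the lowest of day 5, and this gene stood at 51.6 CPM with no cytokine, 40.3 with 5 IU/mL IL-2, 76.5 with 5 IU/mL IL-15, 50.1 with IL-2v at 5 IU/mL and 133 with IL-2v at 50, all above the 17.6 CPM of the IL-2 library at 50 IU/mL. Of 80 measured ribosomal protein genes, 0 passed 2-fold in either direction (12.3% of all genes did), with a median of 0.11.

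The IL-2 library held more cycling cells. The share of cells with a UMI of the proliferation genes Mki67 or Top2a, after thinning to 2000 UMIs, was 19.5% (18.5% to 20.6%, 5590 cells) with IL-15 and 47.6% (45.7% to 49.4%, 2857 cells) with IL-2. The thinning left out 219 and 393 shallower cells, and without it the shares were 24.6% and 50.4%. Cells with no cytokine on day 5 had 7.91% and naive cells 2.04%. The order depends on the measure: by at least 3 UMIs of the cell cycle lists, the IL-15 share (34.1%) lay below that with no cytokine (42.8%) and above that of naive cells (28.5%), and the IL-2 share (69.2%) lay above all 3.

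**Figure D5:**
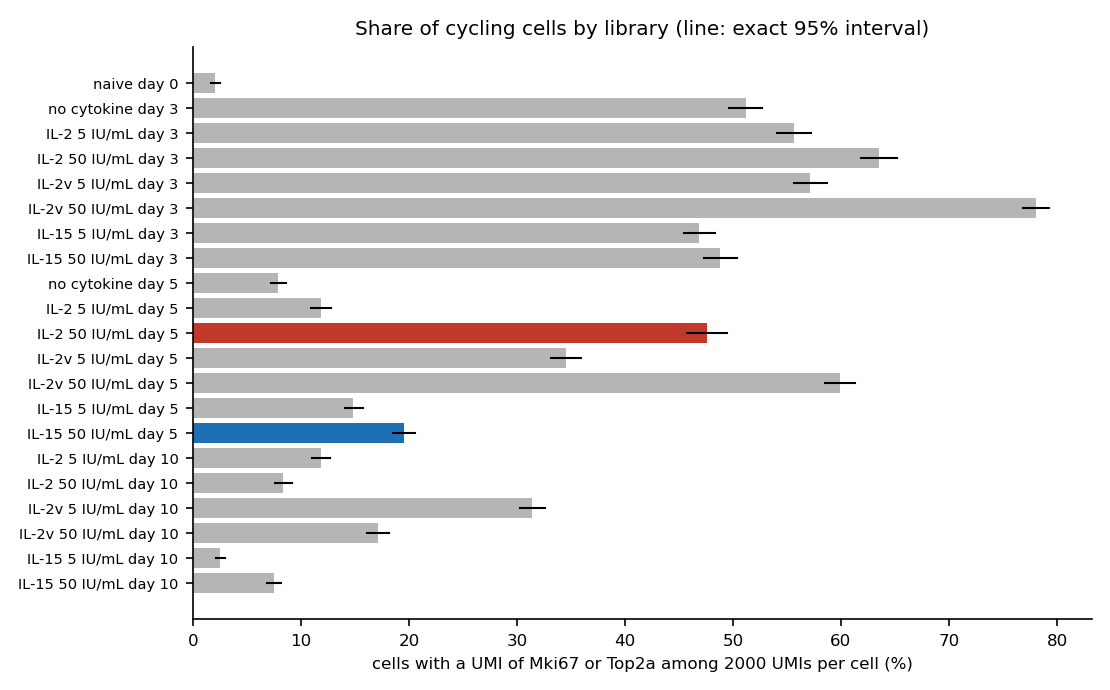
Share of cells (x axis, percent) with a UMI of Mki67 or Top2a among 2000 UMIs per cell in each of the 21 libraries (y axis); lines are exact 95% intervals, blue is IL-15 and red IL-2 at 50 IU/mL on day 5. The IL-2 bar (47.6%) is longer than the IL-15 bar (19.5%), and that of IL-2v at the same dose and day is longer still (59.9%).

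Of 21 measured DNA replication genes, 0 were higher with IL-15 (4.29% of all genes were) and 8 lower (8.01%), with a median of −0.83. Of 32 genes of G2 and mitosis, 0 were higher and 3 lower, the latter a share near that 8.01%, with a median of −0.55. The DNA ligase gene Lig1 (44.7 against 139 CPM, −1.62), the helicase gene Hells (−1.68) and the replicative helicase gene Mcm5 (−1.26) were lower, and the 3 lower mitosis genes were Bub1 (−1.79), Hmmr (−1.26) and Nusap1 (−1.19). Top2a itself stood at 407 and 765 CPM (−0.91). Within cells that held a UMI of Mki67 or Top2a (1431 with IL-15, 1638 with IL-2) the median of the replication list was −0.27, and Lig1 (−0.70), Mcm5 (−0.45), Bub1 (−0.91), Hmmr (−0.39) and Nusap1 (−0.28) lay within 2-fold, while Hells did not (−1.13). The mitosis list had the other sign there, with a median of 0.35, and Ccna2 differed by 0.46 there against −1.79 in the other cells. Of 11 measured D cyclins, cyclin-dependent kinases and inhibitors, 1 was higher (4.29% of all genes were) and 3 lower (8.01%). Ccnd2 was higher, and Cdkn1a, Cdkn1b, which encodes p27 (100.3 against 203 CPM, −1.01, past 2-fold in 7 of 15 settings, the main one included), and the retinoblastoma gene Rb1 (17.3 against 58.6 CPM, −1.70) were lower. In IL-2 cells Top2a was found in 49.8% of thinned cells with Cdkn1a and 38.2% of those without it, and in IL-15 cells, of which 25 held Cdkn1a, in 44.0% and 15.3%. Of 11 measured p53 targets, 1 was higher and 2 lower, against 4.29% and 8.01% of all genes. Aen (1.21) was higher, Cdkn1a and Ccng1 (−1.15) were lower, and Mdm2 differed by −0.73.

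The remaining differences were mostly present in both classes of cell. Of the 255 higher genes, 233 were still at least 2-fold higher in cells that held no UMI of Mki67 or Top2a (4378 with IL-15, 1612 with IL-2) and 227 in cells with one, and of the 476 lower genes 440 and 370 were still 2-fold lower. These classes are made of the same cells that gave the calls. They were made without thinning, and the IL-2 library was the shallower (median 3016 against 3617 UMIs). Cycling cells with neither gene detected fall in the first class. Over all 5946 genes, 4.96% were higher and 8.91% lower in the first class, and 4.57% and 6.86% in the second. Bnip3 differed by −5.04 and −3.68 in these classes, S1pr1 by 1.98 and 1.82 and Nolc1 by 2.59 and 2.53.

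Of 14 measured chaperones, 0 were higher with IL-15 (4.29% of all genes were) and 4 lower (8.01%). Besides Hspa1a and Hspa1b these were the co-chaperone gene Dnajb1 (27.1 against 70.1 CPM, −1.34) and Hsp90ab1 (1475 against 3163 CPM, −1.10), and Hsp90aa1 stood at 295 and 577 CPM (−0.97). Without the 445 and 4 cells that held a UMI of Hspa1a or Hspa1b, a setting added after seeing the data, 237 genes were higher and 471 lower, and Dnajb1 lay within 2-fold (−0.96). That setting sets Hspa1a and Hspa1b to 0 by construction. Hspa1a stood at 0.186 CPM with 50 IU/mL IL-2v and at 0 with no cytokine and with 5 IU/mL of IL-2 or IL-15 on day 5. The metallothionein genes Mt1 (57.6 against 761 CPM, −3.70) and Mt2 (16.6 against 288 CPM, −4.04), whose proteins bind zinc and copper, were lower with IL-15. Mt1 stood at 49.1 to 104 CPM in the other day 5 libraries with a cytokine, so the IL-2 library at 50 IU/mL stood apart. An antisense gene overlaps 73.5% of the Mt2 exons and the counting of strand is not given in the sources used here.

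The interferon list held 2 groups that went in opposite directions. Ifitm1 (65.7 against 730 CPM, −3.46), Ifitm2 (37.7 against 641 CPM, −4.05) and Ifitm3 (8.24 against 93.6 CPM, −3.35), membrane proteins that restrict viral entry, were lower with IL-15. Ifi47 (224 against 68.7 CPM, 1.69), Ifi27l2a (432 against 145 CPM, 1.57), Ly6c2 (434 against 155 CPM, 1.48) and Zbp1 (1.46) were higher. The list as a whole had 4 of 18 measured genes higher and 3 lower, against 4.29% and 8.01% of all genes, with a median of 0.60. In antigen presentation, 1 of 20 genes was higher (4.29% of all genes were), the peptide-trimming protease gene Erap1 (1.04), with H2-K1 at 2128 and 1604 CPM and B2m at 2933 and 3127 CPM. All 8 GIMAP genes, GTPases of lymphocyte survival, had positive differences, from 0.20 to 0.88, and 0 reached 2-fold (12.3% of all genes did). Of 17 measured genes of the S100, annexin and galectin list, which also holds genes of other families, 5 were lower (8.01% of all genes were). From the named families these were Anxa2 (207 against 677 CPM, −1.71), Anxa1 (−1.73) and Lgals3 (−1.87). The others were Vim (960 against 2368 CPM, −1.30) and the actin-capping gene Capg (−2.58). Of 15 early response genes, 4 were lower (8.01% of all genes were): Fosl2, the ERK phosphatase genes Dusp6 (14.8 against 70.4 CPM, −2.18) and Dusp5 (−1.64), and Ier3 (−1.10). Of 9 measured BCL2 family genes, 0 were higher (4.29% of all genes were) and 2 lower (8.01%). These 2 were the death-promoting genes Bcl2l11, which encodes BIM (94.5 against 229 CPM, −1.27), and Pmaip1 (−1.05).

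The same contrast could be read at other days and doses from other libraries, which are not replicates since day or dose differs. Of the 255 higher genes, 11 were at least 2-fold higher at 5 IU/mL on day 5, 74 at 50 IU/mL on day 3 and 94 at 50 IU/mL on day 10, and over all 5946 genes the counts were 23 (0.387%), 160 (2.69%) and 589 (9.91%). Of the 476 lower genes, 71, 171 and 210 were 2-fold lower, against 95 (1.6%), 208 (3.5%) and 539 (9.06%) over all genes. The other 2 pairs were those at 5 IU/mL on days 3 and 10. On day 3, 3 of the higher genes were 2-fold higher and 33 of the lower genes 2-fold lower, against 3 (0.0505%) and 34 (0.572%) over all genes. On day 10 these counts were 32 and 229, against 99 (1.66%) and 638 (10.7%), and 14 of the higher genes were 2-fold lower there and 4 of the lower genes 2-fold higher. At 50 IU/mL on day 10 such reversals numbered 10 and 26. In the first 3 pairs, median differences of the higher genes were 0.33, 0.47 and 0.52, and of the lower genes −0.33, −0.77 and −0.75. At 5 IU/mL on day 5, Ifitm2 kept its size (12.4 against 244 CPM, −4.19) and Gzmb differed by −1.08, whereas S1pr1 (320.1 and 352 CPM), Tcf7 (252 and 295 CPM) and Tnfrsf9 (6.26 and 8.88 CPM) lay within 2-fold. At 50 IU/mL on day 3, S1pr1 differed by 1.90, Tcf7 by 1.95, Slc2a3 by −2.30 and Gzmb by −1.06, and on day 10 by 6.66, 5.42, −2.27 and −6.34. The ribosome biogenesis list had a median of −0.18 on day 3, −0.01 on day 10 and 0.67 at the lower dose on day 5, and Nolc1 differed by −0.05 on day 3 and −0.17 on day 10. The glycolysis and hypoxia list had medians of −1.30, −0.45 and −0.50 in the same order, and the naive and memory list of 1.03, 3.97 and 0.01.

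As a measure of the whole profile, the root mean square of the log2 differences of 5495 genes placed the IL-15 library nearest to the day 5 library with 5 IU/mL IL-2v (0.331), next to that with 5 IU/mL IL-15 (0.393), and 0.684 from the IL-2 library. The IL-2 library lay farther from its nearest neighbours, which were nearly level. They were the libraries with 5 IU/mL IL-2v on day 5 (0.536), 5 IU/mL IL-2 on day 3 (0.540) and 50 IU/mL IL-2v on day 5 (0.541).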

How the data were processed

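RNA of single cells was measured in 21 libraries, 1 per condition, of which 2 make the comparison. The authors deposited 1 table per library of raw UMI counts for 17516 gene symbols, whole numbers that were not normalized. The submitters' processing notes name Cell Ranger, Seurat 4.0.1 and 3.0.2 and the genome mm10; the annotation, the counting of strand and any removal of doublets are not given in the sources used here, and no doublet caller was run here. Groups were taken from the titles.

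Cells below 1000 UMIs or 500 genes, or above 10% mitochondrial UMIs, were left out, which removed 1 cell of the IL-2 library and 0 of the IL-15 library. UMIs were summed per library and scaled to CPM, and differences were taken between log2(CPM + 1) values. Genes of at least 20 CPM in either library were compared, and a difference of 1 (2-fold) was the call. With 1 library per group there was no test and no model of spread. Levels have exact Poisson 95% intervals and shares exact Clopper-Pearson 95% intervals, and both cover counting error only. For shares, cells were thinned without replacement to 2000 UMIs. Named genes were the 12 highest and 12 lowest differences among genes that reached 50 CPM in either library, and members of 31 gene lists and 8 marker lists. Some genes that the rule names are not reported here. The members and lists were chosen with earlier results of these data known.

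Positions came from GENCODE vM21 (GRCm38, the assembly of mm10), in which 768 of 769 named symbols were found; copies and overlaps were checked there with blastn at 95% identity or more. Promoters came from RefSeq (GRCm38.p6), and for 82.3% of 6091 promoters of compared genes the bases after the start stood in a GENCODE transcript. Alternatives changed scaling, pseudocount, filters and the cells used. Python 3.11.15, numpy 2.4.6, scipy 1.17.1, pandas 2.3.3, matplotlib 3.10.9 and R 4.3.3 were used, with edgeR 4.0.16 and DESeq2 1.42.0 for scaling factors only. The 2-fold call alone was tested on simulated library sums, which had counting error only.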

Additional observations from a re-analysis of the deposited data

Results flagged for a closer look

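For 11 of the named genes, the IL-15 minus IL-2 difference passed 2-fold in one direction on day 5 at 50 IU/mL and in the other in another pair of libraries. The difference between pairs was not tested, and each pair has 1 library per cytokine. At 5 IU/mL on day 5, Lig1 differed by 1.05 (−1.62 at 50 IU/mL) and Myb by 1.17 (−2.74). At 50 IU/mL on day 3, Gzma differed by 1.48 (−3.20 on day 5). At 50 IU/mL on day 10, the genes that were higher with IL-15 on day 5 and lower on day 10 were Serpina3g (−1.67, from 1.48), Zbp1 (−1.19, from 1.46), Hsd17b7 (−2.54, from 1.40) and Aen (−1.02, from 1.21). Those that went the other way were the cell cycle inhibitor gene Cdkn1b (1.31, from −1.01, a value past 2-fold in 7 of 15 settings), the mitosis gene Nusap1 (1.39, from −1.19) and the phosphofructokinase gene Pfkl (1.20, from −2.03). At 5 IU/mL on day 10, Serpina3g (−2.84) and the lectin gene Klrd1 (−1.92, from 1.28) were also lower with IL-15.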

How the results depend on the processing

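No paired analysis was possible because each condition had 1 library. The counts of 255 higher and 476 lower genes went to 135 and 308 with a pseudocount of 10 CPM, to 664 and 1001 with no filter on level and to 55 and 145 among genes of at least 100 CPM; these settings shrink low genes or change which genes enter. They stayed within 1.5 times under the other 11 settings, from 237 to 346 higher and 400 to 519 lower, including TMM scaling (293 and 431), DESeq2 size factors (252 and 480) and cells thinned to 2000 UMIs before summing (270 and 519), the last chosen after seeing the data. Of the higher and lower genes, 217 and 367 were still called in cells with a Mki67 or Top2a UMI and 228 and 398 in cells without one when the 20 CPM minimum was applied within each class, fewer than by difference alone because some of these genes fall under it. No called value of a named gene turned its sign in any of the 14 settings in which it was computed; among all called genes 1 did, Cenpk (−1.33, 0.06 in cells with no UMI of Mki67 or Top2a), named after its values were seen. Genes near 2-fold lost their call under several settings, such as Cdkn1b (called in 7 of 15) and Fads1 (8 of 13). The share of cycling cells was 14.8% with IL-15 and 35.2% with IL-2 when thinned to 1000 UMIs, 24.6% and 50.4% with no thinning, and 34.1% and 69.2% by at least 3 UMIs of the cell cycle lists, higher with IL-2 in each. The median of the mitosis list was 0.35 in cells with a Mki67 or Top2a UMI and −1.39 in the others, over the same 32 genes, of which Mki67 and Top2a define the classes.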
